A study of Mus musculus with 6 samples.

Results

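The genes described here are those of the unfolded protein response and of protein folding in the endoplasmic reticulum (ER): 39 genes of the 19928 in the deposited table, chosen by symbol, all of which were found. They fall into 10 transcription factors and stress sensors, 11 chaperones and their cofactors, 6 genes of disulfide formation, 9 genes of degradation and translocation, and 3 genes of the stress output. RNA-seq was done on adipose tissue of KM mice. In the first group, 3 samples came from mice whose food was supplemented with RAS (radix Angelica sinensis, a medicinal root) at 10.00 g/kg body weight. The other group, the control, also held 3 samples. The series title places the study in mice with obesity induced by a high-fat diet, whereas the diet label of the control samples says only control. The sources used here name no fat depot, age or sex and do not say whether a sample is 1 mouse or a pool, so p-values measure only the spread between these samples.

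The choice of these genes used the RAS against control contrast, in which Creb3l1 is among the lowest genes. Differences between the groups are therefore given as a description and support nothing. Values are FPKM, fragments per kilobase of transcript, scaled to the size of the library, which allows levels of different genes to be set side by side. Log2 differences are of FPKM + 1, RAS minus control, with the standard error (SE) from limma, a linear model fitted to all genes with pooled information on their spread. In bulk tissue, fewer cells of a type and less RNA per cell cannot be told apart.

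The ER folds secreted and membrane proteins, and the unfolded protein response matches its folding capacity to the load. The sensors IRE1 (gene Ern1), PERK (Eif2ak3) and ATF6 (Atf6) are held by the chaperone BiP (Hspa5) and released when unfolded proteins accumulate. IRE1 splices Xbp1 mRNA, ATF6 is cut in the Golgi to free a transcription factor, and PERK slows translation while favouring that of Atf4. ATF6 and XBP1 raise chaperones, disulfide enzymes and degradation genes, and ATF4 raises genes of amino acid supply and Ddit3. The CREB3 family holds membrane-bound factors cut like ATF6. Its member Creb3l1 is known for matrix secretion in bone and fibroblasts. Fat cells secrete adiponectin, leptin and lipoprotein lipase, all of which fold in the ER.

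Of the 33 genes whose promoters could be read, 12 had an element of ER stress there, in its long or short form, and the other 21 had neither form. The genes were listed as genes of this response, which ATF6 and XBP1 raise. A high share of the element therefore follows in part from the choice of the genes, and is a description. Promoters, 250 bases before to 50 after the start, were taken from RefSeq (GRCm38.p6) for 33 of the 39 genes, while Creb3l1, Atf6, Hyou1, Manf, Derl1 and Sec61a1 were not matched. The ER stress element ERSE, which binds NF-Y at its first part and ATF6 or XBP1 at its second, was searched on both strands as CCAAT, then 9 bases of any kind, then CCACG. An exact match stood in 10 of the 33 genes (30.3%), against 37 of all 27025 genes with a promoter (0.137%). The matches are listed 5′ to 3′ on the strand that holds the motif, with the fixed letters in capitals.
Hspa5 (chr2:34772025-34772043, + strand): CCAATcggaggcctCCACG
Hsp90b1, far site (chr10:86705638-86705656, - strand): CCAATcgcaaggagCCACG
Hsp90b1, near site (chr10:86705533-86705551, + strand): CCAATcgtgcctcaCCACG
Calr (chr8:84847075-84847093, + strand): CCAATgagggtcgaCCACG
Canx (chr11:50325800-50325818, - strand): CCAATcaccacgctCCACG
Dnajc3 (chr14:118937827-118937845, + strand): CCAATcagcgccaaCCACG
Creld2 (chr15:88819520-88819538, - strand): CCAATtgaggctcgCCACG
Pdia6 (chr12:17266491-17266509, + strand): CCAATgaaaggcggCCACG
Ero1lb (chr13:12565682-12565700, - strand): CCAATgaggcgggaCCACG
Syvn1 (chr19:6046532-6046550, + strand): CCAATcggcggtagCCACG
Derl3 (chr10:75893242-75893260, - strand): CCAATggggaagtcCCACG
The shorter variant ERSE-II, searched on both strands as ATTGG, 1 base of any kind and CCACG, stood in 2 other members and in 0.0444% of all genes.
Herpud1 (chr8:94386377-94386387, + strand): ATTGGgCCACG
Dnajb11 (chr16:22857852-22857862, + strand): ATTGGcCCACG
Both motifs end in CCACG, and no ERSE-II match stood in a promoter with an ERSE match.

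**Figure D1:**
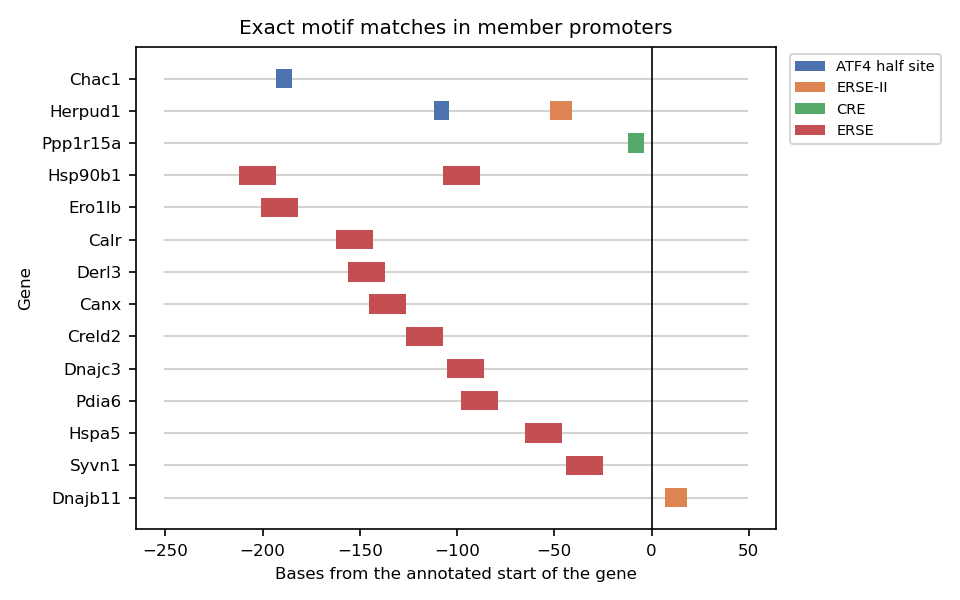
Position of exact motif matches in the promoters of members, in bases from the annotated start of the gene (0), with each grey line spanning the window searched and each bar a match. The ERSE matches lie between positions -212 and -26, and that of Hspa5 starts at -65.

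The promoter of Hspa5 is shown because BiP is the classical target of the element (GRCm38.p6, chr2:34771840-34772139, + strand; capitals mark the fixed letters of the exact ERSE).
Hspa5: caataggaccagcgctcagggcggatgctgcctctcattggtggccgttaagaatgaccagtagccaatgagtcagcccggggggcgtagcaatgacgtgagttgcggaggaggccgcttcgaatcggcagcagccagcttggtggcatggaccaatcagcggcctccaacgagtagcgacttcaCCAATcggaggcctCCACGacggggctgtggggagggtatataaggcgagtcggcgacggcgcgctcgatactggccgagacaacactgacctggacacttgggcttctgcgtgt
The promoter of Chac1 is shown beside it because Chac1 is a target of ATF4 and lay on the other side of the contrast (GRCm38.p6, chr2:119350992-119351291, + strand; capitals mark a match to TGATGCAA, a core of ATF4 elements, on the opposite strand).
Chac1: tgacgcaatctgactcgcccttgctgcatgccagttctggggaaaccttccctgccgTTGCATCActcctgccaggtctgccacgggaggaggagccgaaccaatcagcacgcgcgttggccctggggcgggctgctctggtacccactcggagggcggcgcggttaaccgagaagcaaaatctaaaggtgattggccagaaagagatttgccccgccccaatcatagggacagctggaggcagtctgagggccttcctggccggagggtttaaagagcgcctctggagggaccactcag
TGATGCAA stood in 2 of the 33 genes, Chac1 and Herpud1, and in 1.03% of all genes. The cAMP response element TGACGTCA stood in Ppp1r15a and in 2.03% of all genes, and TGACGTGG, a site of XBP1 and ATF6, in 0 of the 33 and in 0.714% of all genes. A match is a description of letters and not evidence of a bound site.

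Adipose markers were abundant in every library. The 6 adipocyte markers, Adipoq among them, summed to 36053 to 52566 FPKM in RAS samples and to 26051 to 32509 FPKM in control samples. Most of that sum was Fabp4, at 30163 to 45586 FPKM in RAS samples and 20821 to 26447 FPKM in control samples. Of the 6 markers, 4 were higher and 2 lower, and Lep was lower in every RAS sample, at 293 to 334 FPKM, against 424 to 615 FPKM in control samples. Scaled counts summed to 15.1 to 15.7 M in RAS samples and 14.1 to 15.2 M in control samples. Of 11 exocrine pancreas markers 5 were found; the defining Cpa1 and Cpb1 stood at 0.0408 FPKM or less, Amy2a5 at 1.27 FPKM or less, and Cela1 at 12.0 to 19.6 FPKM in RAS samples and 8.38 to 14.7 FPKM in control samples. Libraries RAS 3 and control 3 differed from the others in plasma cell markers, and control 3 in liver markers; those values stand beside the chaperones below.

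All 39 genes passed the minimum of a mean of 1 FPKM. Levels spanned from 1.21 FPKM for Derl3 to 206 FPKM for the lectin chaperone Calr as the mean of the 6 samples. The 6 genes at 100 FPKM or more were Calr, the protein disulfide isomerase P4hb (174), the chaperones Hspa5 (171) and Hsp90b1 (158), the transcription factor Xbp1 (131) and the glycoprotein disulfide isomerase Pdia3 (122). The ranges over samples of Calr, P4hb, Hspa5 and Hsp90b1 overlapped, so their order is not firm. Sensors were scarce: Eif2ak3 averaged 6.52, Atf6 8.55 and Ern1 3.91 FPKM.

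No gene passed the test across the table. With limma, 0 of 12606 genes had a Benjamini-Hochberg adjusted p under 0.05 (0%), members included, and 1294 genes (10.3%) had an unadjusted p under 0.05, 9 of the members among them. Split by direction, 8 members lay lower with such a p, against 6.41% of all tested genes, and 1 higher, against 3.86%. In the fit of scaled counts in place of FPKM, 0 genes passed and 1303 had an unadjusted p under 0.05. Of the 39 members, 31 had a log2 difference below 0 and 8 above 0; over all tested genes 57% lay below 0 and 43% above. The median log2 difference was -0.18 over the members and -0.04 over all tested genes. All RAS values lay under all control values for 13 members and above them for 2, where 12.5% and 5.42% of all tested genes did so. Because the contrast was used in choosing the group, these counts are a description.

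**Figure D2:**
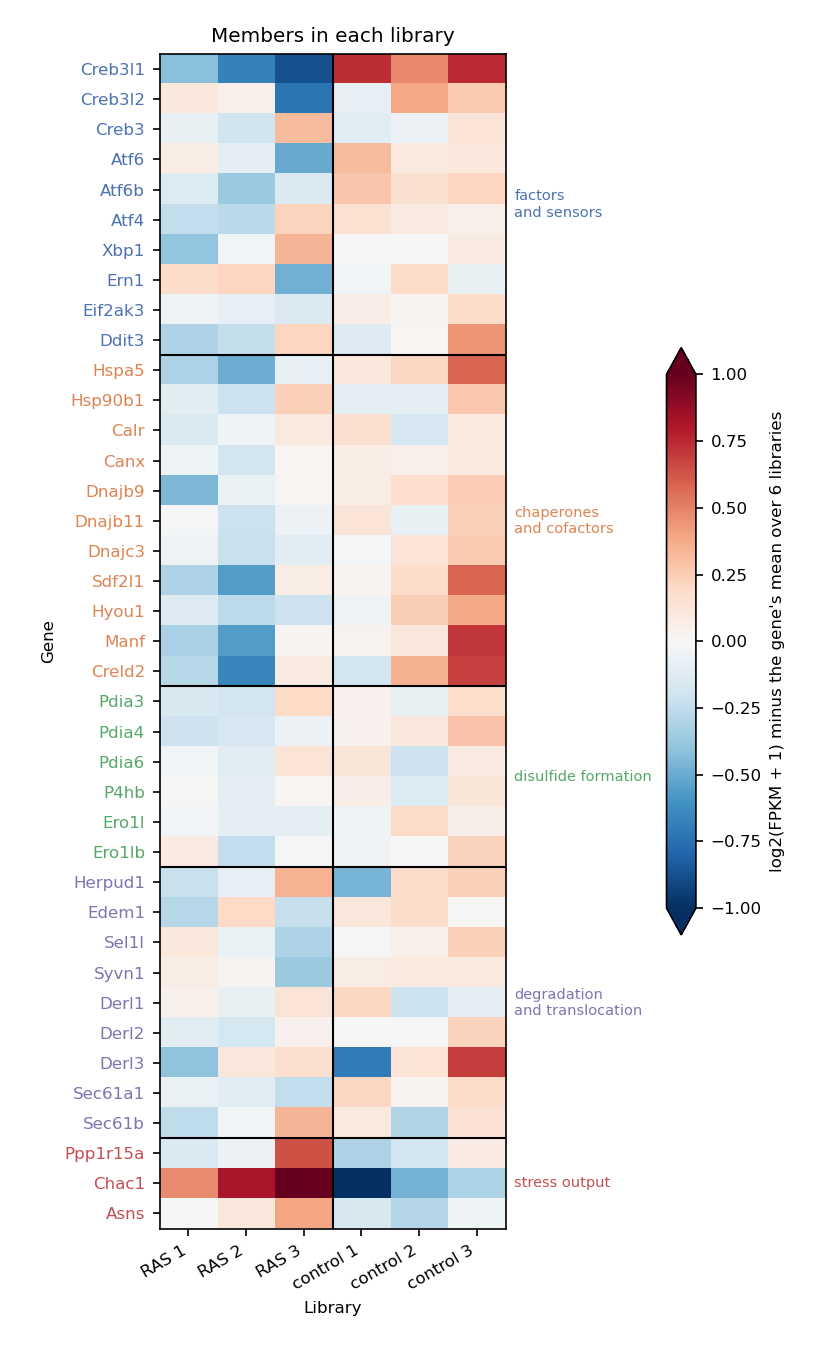
Each row is a member, each column a library, and the colour gives log2(FPKM + 1) minus the gene's mean over the 6 libraries, from blue (lower) to red (higher), with rows grouped by role. Creb3l1 is blue in the 3 RAS libraries and red in the 3 control libraries, Chac1 the reverse, and control 3 is the highest library in 10 of the 11 chaperone rows.

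Among the factors and sensors, Creb3l1 stood apart from its relatives Creb3l2 and Creb3. Creb3l1, on chromosome 2 at 91982328 to 92024170, had 5.44, 4.36 and 3.69 FPKM in RAS samples, against 13.3, 11.01 and 13.4 FPKM in control samples. Every RAS sample lay under every control sample, by a log2 difference of -1.31 ± 0.15 (SE), and 24 of the 12606 genes had a lower one; this is the value that led to the choice of the group. The closest paralog, Creb3l2, which serves secretion in cartilage, had 12.3, 11.8 and 6.46 FPKM in RAS samples, against 10.6, 15.2 and 13.8 FPKM in control samples. Its groups overlapped, and RAS 3 was the lowest sample (log2 -0.38 ± 0.24, and -0.11 without it). Creb3, the founder of the family, had 28.6, 26.2 and 37.8 FPKM in RAS samples, against 27.7, 28.9 and 33.1 FPKM in control samples, a log2 difference of 0.03 ± 0.16. Creb3l1 was at 0.443, 0.370 and 0.572 of the level of Creb3l2 in RAS samples, against 1.25, 0.727 and 0.969 in control samples. This ratio holds the values of Creb3l1 that led to the choice of the group, so its separation adds no support. The ratios given here were chosen after the values were seen. The protease genes Mbtps1 and Mbtps2, whose products cut ATF6 and the CREB3 factors, averaged 28.0 ± 2.21 and 3.91 ± 0.45 FPKM in RAS samples, against 31.2 ± 1.92 and 3.51 ± 0.46 FPKM in control samples (SD, n = 3 each), with overlapping groups.

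Atf6b, the relative of Atf6 with a weaker activating domain, had 15.1, 12.7 and 15.05 FPKM in RAS samples, against 20.5, 18.8 and 19.5 FPKM in control samples. The groups did not overlap and the samples within each lay close together (log2 -0.44 ± 0.11). Atf6 had 8.89, 7.84 and 5.64 FPKM in RAS samples, against 10.7, 9.04 and 9.15 FPKM in control samples; RAS 1 lay close to control 2, and RAS 3 was lowest (log2 -0.35 ± 0.16, and -0.18 without RAS 3). Eif2ak3, the PERK kinase, was at 5.77 to 6.22 FPKM in RAS samples and at 6.65 to 7.53 FPKM in control samples (log2 -0.19 ± 0.10).

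The factors downstream of the sensors overlapped between the groups. Xbp1 had 98.1, 127 and 164 FPKM in RAS samples, against 129.1, 129 and 137 FPKM in control samples, so that the RAS samples lay on both sides of the control samples (log2 -0.05 ± 0.20). These values count all Xbp1 transcripts and do not separate the spliced form. Atf4 had 29.5, 29.0 and 41.1 FPKM in RAS samples, against 39.1, 37.5 and 36.5 FPKM in control samples, overlapping, and shares its locus entry with LOC100861991 and Rps19bp1, so its reads may be split. Ddit3 (CHOP), the factor tied to cell death under lasting stress, was at 11.03 to 16.3 FPKM in RAS samples and 12.6 to 19.2 FPKM in control samples. Ern1, the IRE1 sensor, was at 2.47 to 4.60 FPKM in RAS samples and 3.61 to 4.53 FPKM in control samples. The medians of the role groups were -0.21 for factors and sensors, -0.33 for chaperones and cofactors, -0.11 for disulfide formation, -0.16 for degradation and translocation and 0.33 for the stress output. The median for disulfide formation was -0.03 without RAS 2 and -0.04 without control 3, and that for degradation and translocation was -0.09 without control 3; that for the stress output was 0.22 without RAS 3.

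**Figure D3:**
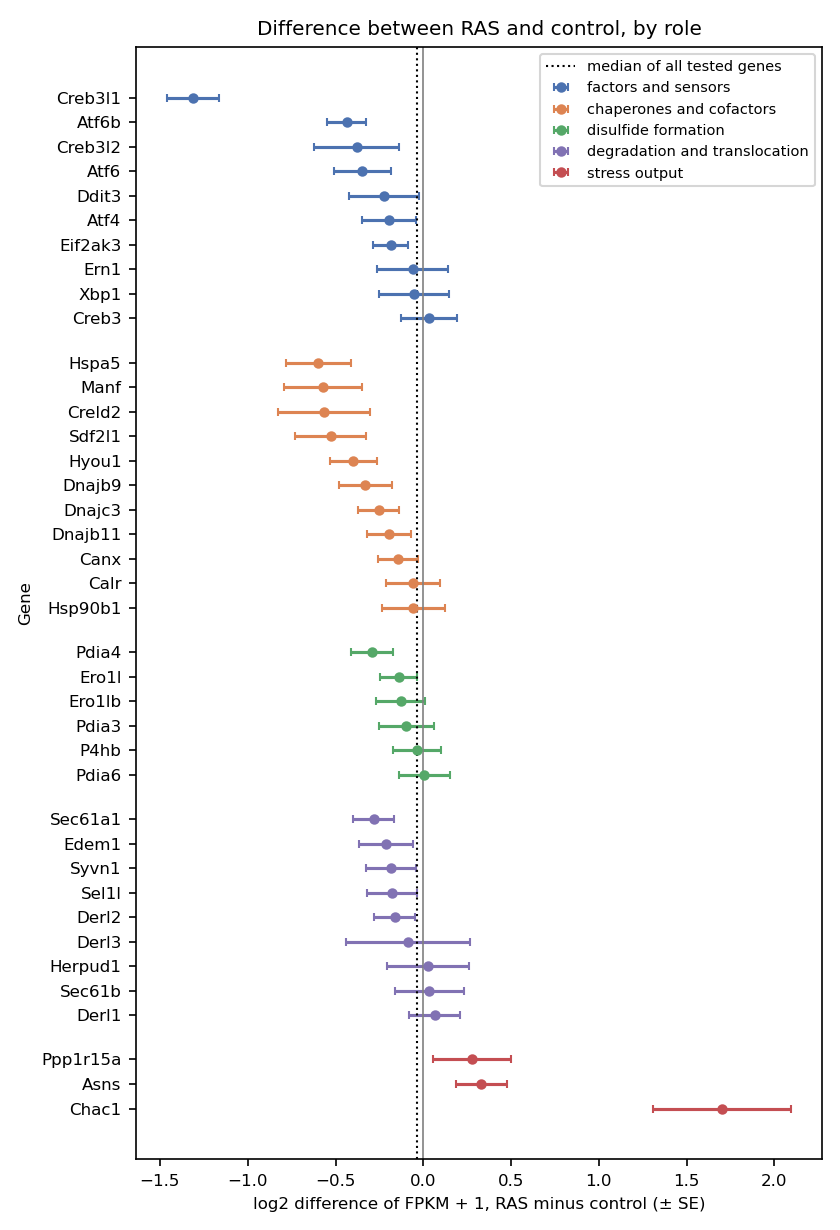
Log2 difference of FPKM + 1, RAS minus control, for each member (points, with bars of ± 1 SE from limma), grouped by role; the dotted line is the median of all 12606 tested genes (-0.04). Creb3l1 lies at -1.31 and Chac1 at 1.70, and 33 of the 39 genes lie within 0.5 of 0.

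All 11 chaperones and cofactors had a log2 difference below 0, and the sizes ranged from -0.60 to -0.06. With scaled counts in place of FPKM, however, that of Hsp90b1 was 0.03. Leaving out RAS 1, RAS 2, control 1 or control 3 also put 1 of the 11 above 0. Across the alternatives, Calr reached 0.009 and Hsp90b1 0.06. Hspa5 encodes BiP, the Hsp70 of the ER. It had 133, 117 and 156 FPKM in RAS samples, against 179, 191 and 249 FPKM in control samples; the groups were apart, by a log2 difference of -0.60 ± 0.18. Manf, a secreted protein that binds BiP, had 13.1, 10.95 and 17.04 FPKM in RAS samples, against 17.1, 18.1 and 27.9 FPKM in control samples, with RAS 3 barely under control 1 (log2 -0.57 ± 0.22, and -0.36 without control 3). Creld2, an ER disulfide isomerase-like protein, had 13.3, 10.1 and 17.5 FPKM in RAS samples, against 14.3, 21.3 and 27.1 FPKM in control samples, with RAS 3 above control 1 (log2 -0.57 ± 0.26, and -0.36 without control 3). Sdf2l1, a cofactor of BiP and its J proteins, had 10.7, 8.81 and 14.2 FPKM in RAS samples, against 13.7, 15.4 and 20.6 FPKM in control samples, again overlapping (log2 -0.53 ± 0.20). Hyou1, the nucleotide exchange factor of BiP, had 17.7, 16.02 and 16.8 FPKM in RAS samples, against 18.99, 23.3 and 25.6 FPKM in control samples (log2 -0.40 ± 0.13).

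The J proteins of BiP lay lower by smaller amounts. Dnajb9 (ERdj4), which restrains IRE1 through BiP, had 22.0, 29.0 and 30.8 FPKM in RAS samples, against 32.0, 34.3 and 36.5 FPKM in control samples (log2 -0.33 ± 0.15, and -0.19 without RAS 1). Dnajc3 (p58IPK) was at 21.4 to 24.2 FPKM in RAS samples and 24.9 to 30.3 FPKM in control samples, which did not overlap, and Dnajb11 (ERdj3) at 22.4 to 25.9 and 24.8 to 31.0 FPKM, which did. Abundant chaperones of other classes had smaller differences. Hsp90b1 (GRP94), the Hsp90 of the ER, had 146, 135 and 185 FPKM in RAS samples, against 147, 147 and 189 FPKM in control samples (log2 -0.06 ± 0.18). Calr had 186, 201 and 219.6 FPKM in RAS samples, against 229.8, 183 and 219 FPKM in control samples (log2 -0.06 ± 0.15), and its membrane partner Canx was at 51.6 to 59.4 FPKM in RAS samples and 60.8 to 62.8 FPKM in control samples (log2 -0.14 ± 0.11). Within a library, Hspa5 was at 0.911, 0.872 and 0.848 of the level of Hsp90b1 in RAS samples, against 1.22, 1.30 and 1.32 in control samples. The ranges of that ratio were apart, but the pair was chosen after the values were seen, so the separation adds no support. The promoters of Hspa5 and Hsp90b1 both hold an ERSE, shown above. Over the members, the median log2 difference was -0.14 for the 12 with ERSE or ERSE-II and -0.16 for the 21 other genes with a promoter. Chac1 (1.70) is among those 21. The 6 members without a matched promoter are in neither set: Creb3l1 (-1.31), Manf (-0.57), Hyou1 (-0.40), Atf6 (-0.35), Sec61a1 (-0.28) and Derl1 (0.06). A bearing of the element on the differences was not tested.

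**Figure D4:**
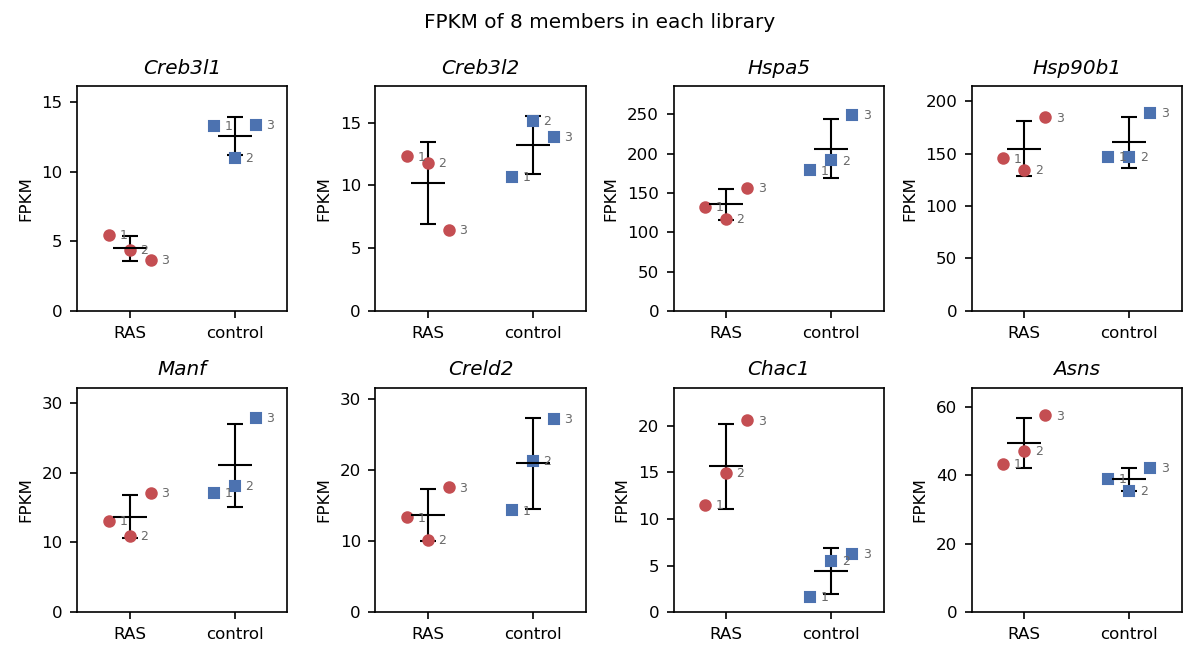
FPKM of 8 members in RAS and control samples (points, numbered by replicate; bars give mean ± SD, n = 3 each, axes start at 0). Creb3l1, Hspa5 and Manf have all RAS samples under all control samples, Chac1 and Asns all above, and Creb3l2, Hsp90b1 and Creld2 overlap.

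Control 3 was the highest library for 10 of the 11 genes, Calr being the exception, and RAS 2 was the lowest for 9. Summed over the 11 genes, levels were 648, 623 and 764 FPKM in RAS samples, against 767, 747 and 919 FPKM in control samples. Without control 3, their median log2 difference was -0.28, and 3 of the 39 members (7.69%) had an unadjusted p under 0.05 in limma, against 7.93% of all tested genes. Without RAS 2 there were 4 (10.3%), against 8.58% of all tested genes. In both fits the share of members was near the background. With all libraries, 9 members (23.1%) and 10.3% of all tested genes had such a p. In the other fits without 1 library the shares, also a description, stayed further from the background. They were 17.9% against 8.68% without RAS 1 and 28.2% against 9.55% without RAS 3. Without control 1 they were 25.6% against 10.8%, and without control 2 they were 15.4% against 7.83%. Plasma cells are rich in ER. The 5 plasma cell markers that are not members (Igj, 2010001M09Rik, Sdc1, Tnfrsf17 and Pou2af1) summed to 13.1, 18.0 and 56.9 FPKM in RAS samples, against 20.2, 22.1 and 78.7 FPKM in control samples. All 5 had a lower mean log2 value in RAS samples, and none was at 0 in any library. Their sum was highest in library 3 of each group, where most of it was Igj (43.6 FPKM in RAS 3 and 59.2 FPKM in control 3). Hspa5, Manf, Creld2 and Sdf2l1 were also highest there, as were Hsp90b1, Canx and Dnajb9, which had smaller differences. Hyou1, Dnajc3 and Dnajb11 were highest in RAS 1 among RAS samples, and Calr in control 1 among control samples. The 6 liver markers summed to 14.1, 9.71 and 11.3 FPKM in RAS samples, against 26.2, 9.69 and 163 FPKM in control samples, and all 6 had a lower mean log2 value in RAS samples. Alb was at 88.4 FPKM in control 3 and at 6.51 to 14.6 FPKM elsewhere, and Fgb was at 0 in every RAS sample and in control 2. The part of plasma cells and of liver RNA in the chaperone values was not tested.

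**Figure D5:**
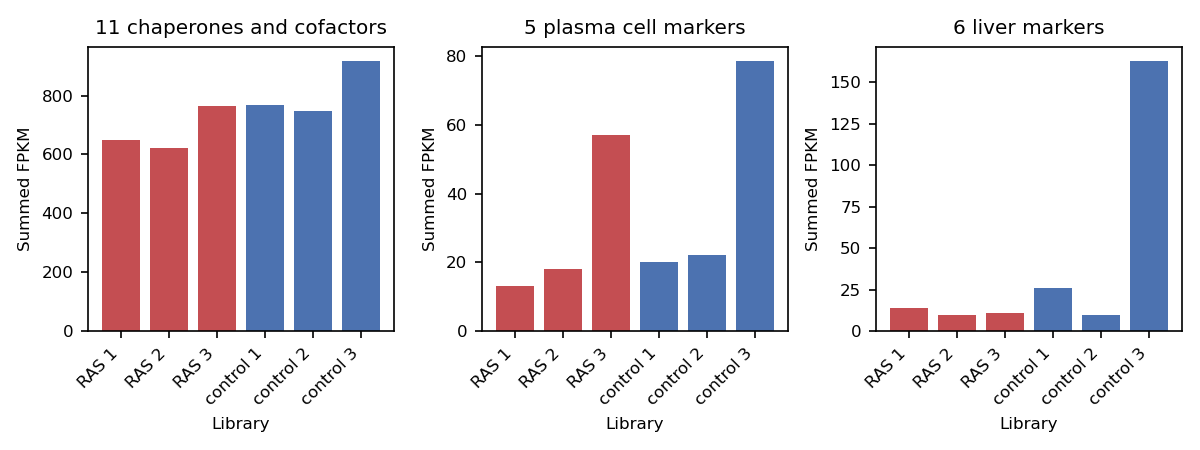
Summed FPKM per library of the 11 chaperones and cofactors, the 5 plasma cell markers that are not members and the 6 liver markers (bars start at 0; red RAS, blue control). Control 3 is the highest library in all 3 panels, and RAS 3 is the highest RAS library for the chaperones and the plasma cell markers.

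Among genes of disulfide formation, the groups were apart for Pdia4 alone. Pdia4 (ERp72) had 39.01, 39.9 and 43.2 FPKM in RAS samples, against 46.4, 48.7 and 55.2 FPKM in control samples, without overlap (log2 -0.29 ± 0.12). P4hb, the archetypal isomerase and a subunit of prolyl 4-hydroxylase, was at 163 to 176 FPKM in RAS samples and 158 to 189 FPKM in control samples. Pdia6 was at 75.6 to 89.7 and 70.2 to 88.5 FPKM, and Pdia3 at 106 to 139.5 FPKM in RAS samples and 115 to 137 FPKM in control samples. The oxidases that recharge the isomerases, listed under their older symbols Ero1l and Ero1lb, averaged 8.51 ± 0.27 and 2.68 ± 0.42 FPKM in RAS samples, against 9.50 ± 0.87 and 3.02 ± 0.42 FPKM in control samples (SD, n = 3 each).

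In degradation and translocation, Sec61a1, the pore of the translocon, had 36.6, 35.5 and 32.3 FPKM in RAS samples, against 44.5, 39.2 and 44.0 FPKM in control samples, without overlap (log2 -0.28 ± 0.12). Its small partner Sec61b was at 72.2 to 109 FPKM in RAS samples and 70.1 to 95.8 FPKM in control samples. The ubiquitin ligase Syvn1 (HRD1) had 24.1, 23.3 and 17.4 FPKM in RAS samples, against 24.1, 24.5 and 24.6 FPKM in control samples. Its groups were apart only because RAS 1, at 24.106 FPKM, lay barely under control 1, at 24.107 FPKM. The difference lay mainly in RAS 3 (log2 -0.18 ± 0.14, and -0.04 without it). Sel1l, the adaptor of Syvn1, was at 19.6 to 26.4 and 24.1 to 29.1 FPKM. Herpud1, which organises that complex and is itself a strong stress target, had 32.0, 35.4 and 48.1 FPKM in RAS samples, against 26.98, 42.9 and 44.6 FPKM in control samples, which overlapped widely. Edem1, the mannosidase-like protein that marks glycoproteins for removal, was at 19.5 to 27.7 FPKM in RAS samples and 24.2 to 27.4 FPKM in control samples. Derl1 and Derl2, channel proteins of retrotranslocation, had log2 differences of 0.06 ± 0.14 and -0.16 ± 0.12. Edem1 and Derl1 share their locus entries with unnamed gene models (LOC100862128 and Gm20184), so their reads may be split. Derl3, the secretory-cell form, was at 0.597, 1.28 and 1.35 FPKM in RAS samples, against 0.300, 1.32 and 2.41 FPKM in control samples; at 4.83 to 37.4 scaled counts its level is not known precisely, and it was highest in control 3.

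The stress output genes lay on the other side. Chac1, a glutathione-degrading enzyme induced through ATF4 and CHOP, had 11.5, 14.9 and 20.6 FPKM in RAS samples, against 1.65, 5.50 and 6.25 FPKM in control samples. Every RAS sample was above every control sample (log2 1.70 ± 0.39, and 1.24 without control 1). Control 1, at 31.9 scaled counts, was far under the other controls. The locus entry of Chac1 (chromosome 2, 119321199 to 119366137) also holds Dll4, Gm14207 and LOC100862328. Asns, asparagine synthetase and a standard ATF4 target, had 43.5, 47.2 and 57.6 FPKM in RAS samples, against 38.99, 35.5 and 42.2 FPKM in control samples, without overlap though RAS 1 lay close to control 3 (log2 0.33 ± 0.14, and 0.22 without RAS 3). Ppp1r15a (GADD34), the phosphatase subunit that restores translation, was at 5.87, 6.34 and 10.9 FPKM in RAS samples, against 5.16, 5.70 and 7.11 FPKM in control samples, overlapping and led by RAS 3 (log2 0.28 ± 0.22, 0.03 without RAS 3, and -0.05 without RAS 3 and control 1). Chac1 was at 0.392, 0.514 and 0.5002 of the level of Atf4 in RAS samples, against 0.0421, 0.147 and 0.171 in control samples, while Atf4 and Ddit3 themselves had lower means in RAS samples. Asns was at 1.48, 1.63 and 1.40 of the level of Atf4 in RAS samples, against 0.998, 0.946 and 1.16 in control samples.

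Other ATF4 targets did not share one direction: of 20 tested, 7 were higher and 13 lower in RAS samples (median log2 -0.10), with 0 past the adjusted threshold in limma; over all tested genes 43% were higher and 57% lower. The median was -0.05 without control 1 and -0.19 without control 2. Trib3, a pseudokinase that binds CHOP and ATF4, had 4.47, 5.75 and 5.81 FPKM in RAS samples, against 3.66, 3.10 and 3.32 FPKM in control samples (log2 0.53). Phgdh, the first enzyme of serine synthesis, had 172, 165 and 147 FPKM in RAS samples, against 111, 130.4 and 97.8 FPKM in control samples (log2 0.51). Slc7a1, a carrier of cationic amino acids, lay the other way, at 1.45 to 2.23 FPKM in RAS samples and 3.11 to 3.90 FPKM in control samples (log2 -0.66). These 3 were named as the targets with the smallest unadjusted p.

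Genes that work around the members in the secretory pathway had medians near that of all genes or below it. In the COPII coat, which carries cargo out of the ER, 2 of 12 genes were higher and 10 lower (median log2 -0.19). Without RAS 3 and control 1 the median was -0.09, with 5 higher and 7 lower. Sec24d, a cargo adaptor of the coat whose loss impairs bone matrix secretion, had 17.5, 15.3 and 14.0 FPKM in RAS samples, against 20.4, 22.1 and 22.2 FPKM in control samples (log2 -0.45). Sec23b was at 9.22 to 12.8 FPKM in RAS samples and 14.5 to 15.2 FPKM in control samples, and Sec24c at 22.4 to 26.2 and 28.6 to 29.96 FPKM, each without overlap. In the translocon and signal peptidase, 3 of 15 were higher and 12 lower (median -0.14, and -0.09 without RAS 2 and -0.08 without control 3), with Srprb, a subunit of the receptor for the signal recognition particle, at 9.80 to 10.9 FPKM in RAS samples and 12.4 to 12.8 FPKM in control samples.

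Among other disulfide isomerases and proline isomerases, 6 of 20 were higher and 14 lower (median -0.08, and -0.05 without RAS 2). Serpinh1 (HSP47), the collagen chaperone, had 229, 258 and 253 FPKM in RAS samples, against 429.7, 279.8 and 329 FPKM in control samples (log2 -0.47), and Fkbp7 lay the other way, at 34.5 to 53.6 FPKM in RAS samples and 30.2 to 32.9 FPKM in control samples (log2 0.40). All 10 procollagen genes, cargo of this machinery, had lower means in RAS samples (median -0.37), and the groups were apart for 1 of them, Col5a1, at 15.98 to 27.4 FPKM in RAS samples and 27.9 to 46.7 FPKM in control samples. Col1a1 had 82.0, 158 and 78.1 FPKM in RAS samples, against 185, 92.5 and 135 FPKM in control samples, so its groups overlapped widely. Without RAS 3 the median of the procollagens was -0.22, without control 1 it was -0.21, and without both, a choice made after seeing the data, it was -0.04, with 3 of 10 higher. The 7 fibroblast markers summed to 1064 to 1482 FPKM in RAS samples and to 1199 to 1910 FPKM in control samples, with 2 higher and 5 lower. Their part in the values of Creb3l1 and the procollagens was not tested. Oligosaccharyltransferase genes divided into 5 higher and 5 lower (median -0.01, and 0.03 with median-ratio size factors), glycan trimming genes 5 and 7 (-0.07), further degradation genes 7 and 9 (-0.05, and 0.02 with 10 higher and 6 lower without RAS 2), and genes linked to IRE1 and XBP1 3 and 8 (-0.11). Leaving out 1 library at a time, these medians ran from -0.11 to 0.01 for oligosaccharyltransferase, from -0.11 to 0.02 for further degradation genes and from -0.16 to -0.07 for genes linked to IRE1 and XBP1, and that for glycan trimming was -0.0047 without RAS 1. Over all 128 tested genes of these lists the median was -0.12, and it was -0.08 without control 1 and -0.07 with median-ratio size factors.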

How the data were processed

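Poly(A) RNA of 6 adipose tissue samples was sequenced on an Illumina instrument, per the labels' protocols. The authors deposited 1 table of FPKM values per gene and sample, with a second set of columns named count, whose values are not whole and were read as a count signal scaled by 1 factor per sample. Per the submitters' processing notes, the tools included TopHat2 2.0.9 and Cufflinks 2.1.1; for build, annotation and filters nothing is given in the sources used here. Of 18403 genes found in GENCODE M21 (GRCm38), 99.67% overlapped the table's locus; the table counts starts from 0 and they are printed counted from 1. Columns carrying the group name of the treatment protocol were taken as RAS, and the other numbered set as control; 4 columns of group values were not used. In the table, 10 members share a locus entry with another gene. No strand-specific step is named, so overlapping genes may share reads.

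The 12606 genes that averaged 1 FPKM or more were fitted with limma 3.58.1 in R 4.3.3 on log2(FPKM + 1), with a trend, two-sided, adjusted by Benjamini-Hochberg at 0.05. The fit was tested on simulated data, drawn as independent normal values with added changes larger than the differences of most members. That run does not show how often differences as small as theirs would be found. Alternatives were a pseudocount of 0.1, no minimum or a minimum of 5 FPKM, quantile normalization, median-ratio size factors, a replicate block, and leaving out each library in turn; using scaled counts, and leaving out RAS 3 with control 1, were chosen after seeing the data. An edgeR fit was planned but not run, because the scaled count signal was not accepted as whole reads. Members, lists and tests were chosen with earlier results of these data known. Named genes were all members, up to 3 genes per related list by unadjusted p, procollagens and Mbtps1 and Mbtps2. Single cell type markers, such as Lep, Cela1, Igj, Alb and Fgb, were picked from the marker lists after their values were seen. List entries were matched by symbol or NCBI gene number, 172 of 193 beside the members. A planned list of tRNA synthetases linked to ATF4 was not analysed, because its entries were not matched. Figures used Python 3.11.15 and matplotlib 3.10.9.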

Additional observations from a re-analysis of the deposited data

How the results depend on the processing

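No member passed the adjusted threshold in limma in any of the 14 alternatives. Over all genes, the number past it ran from 0 to 2 when 1 library was left out, and was 3 without RAS 3 and control 1. The median log2 difference of the members ran from -0.20 to -0.12 when 1 library was left out, and was -0.14 with median-ratio size factors and -0.11 with scaled counts. It moved by less than the spread between samples in each alternative, as did the median of the related lists. Of the 39 members, 26 kept the sign of their difference in every alternative and 13 did not, of which 12 had differences from -0.10 to 0.06 and the other was Ppp1r15a. Creb3l1 ran from -1.51 to -1.16, Chac1 from 1.04 to 1.97, Hspa5 from -0.80 to -0.46 and Asns from 0.22 to 0.42, whereas Hsp90b1 ran from -0.25 to 0.06. With the replicate block the median of the members stayed at -0.18 and 0 members passed, and 1663 genes had an unadjusted p under 0.05 against 1294 without it. Same-numbered samples deviated from their group means with correlations of 0.18, 0.096 and 0.22, each the highest for its sample, a hint from the data and not the design. Leaving out 1 library leaves 2 samples in a group, and counting error in low genes such as Derl3 adds to the spread. The planned edgeR fit was not run.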
